A study of Mus musculus with 6 samples.

Results

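The 10 genes described here belong to the granulocyte and myeloid programme and were examined for DNA methylation in the embryonic cerebral cortex. They were chosen by name as blood genes that cortical cells are thought not to use, grouped around Cebpe, whose promoter was picked for its lower level in cKO in these same libraries. The 10 genes are part of 21938 nuclear protein-coding genes in the annotation. A covered cytosine here is a CpG cytosine with at least 6 reads in all 6 libraries, and each gene was followed from 5 kb before its annotated 5' end to 2 kb past its end. Of the 10 genes, 8 held a covered cytosine, with 160 such cytosines in all out of 646645 nuclear ones. Because the cKO against control contrast chose Cebpe, levels of the 2 groups are given as a description, and no p-value of that contrast is printed for any of the 10 genes. Regions called in a fit over the whole series are counted and named beside the background, and nothing is read from those calls. The p-values printed for Csf3r and Prtn3 compare promoter and body within libraries. No RNA was measured in these libraries, so whether the genes were silent was not tested here.

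The libraries come from the entire cortex of C57BL/6 embryos at embryonic day 16 and fall into 3 conditional knockout (cKO) libraries, labelled Uhrf1 -/-, and 3 heterozygous (control) libraries, labelled Uhrf1 +/-. Both groups carry one Emx1-Cre allele, which is active in the dorsal telencephalon. Cells of other origin in the dissected cortex, such as microglia, vessel cells and incoming interneurons, would therefore keep the floxed allele. Their share in each library was not measured, and their part in a difference between the groups was not tested. Reduced representation bisulfite sequencing with an oxidation step (Ox-RRBS) reads fragments cut by MspI at CCGG, and the oxidation makes 5-hydroxymethylcytosine read as unmethylated, so the percent of reads still showing C is the 5-methylcytosine (5mC) level. The labels tie no library to a litter, so the spread between libraries may be partly technical. Files held 18238737 to 31019082 cytosine calls, a call being 1 read at 1 cytosine, at a median coverage of 13 to 17 reads. Levels of a region sum such calls, and a read that covers several of its cytosines is counted at each. One library stood apart. The library labelled control replicate 1 had a mean level of 15.6% over the shared cytosines, against 15.8% to 19.6% in the 3 cKO libraries and 38.9% to 39.4% in control replicates 2 and 3. Its values are therefore printed throughout, and summaries are given with it and without it. Leaving it out is a choice made on the outcome itself.

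Uhrf1 binds hemimethylated DNA behind the replication fork and brings in Dnmt1, so that the methylation pattern is copied to the new strand. In the blood lineage, Spi1 (PU.1) and the C/EBP factors direct progenitors towards granulocytes, and Cebpe drives the late steps in which secondary granules are made. Azurophil granules are filled earlier, with myeloperoxidase and the serine proteases of neutrophils. In tissues outside blood, genes of this kind commonly carry methylated CpG unless their promoter is a CpG island, which is usually free of methylation in every tissue.

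Several stretches are printed to show what kind of sequence was read at methylated and unmethylated sites of these genes. All are on the plus strand of GRCm38 (RefSeq, GRCm38.p6), in lower case, with each CpG whose cytosine was covered on either strand in capitals. The Csf3r stretch is the part of its promoter just before the annotated 5' end (chr4:126024409-126024549), the Elane stretch lies past its end (chr10:79888716-79888775), and the Spi1 (chr2:91078862-91078926) and Ltf (chr9:111017818-111017872) stretches lie before their promoters.
Csf3r promoter: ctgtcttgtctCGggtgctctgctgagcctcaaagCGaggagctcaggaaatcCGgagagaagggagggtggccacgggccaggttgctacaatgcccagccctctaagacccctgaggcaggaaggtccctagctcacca
Elane downstream: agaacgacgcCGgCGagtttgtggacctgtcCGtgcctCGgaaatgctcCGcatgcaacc
Spi1 upstream: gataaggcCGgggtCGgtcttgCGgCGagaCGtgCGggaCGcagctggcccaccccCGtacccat
Ltf upstream: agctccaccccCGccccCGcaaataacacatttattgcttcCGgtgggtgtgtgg
The RefSeq promoter table (250 bases before to 50 after the RefSeq 5' end) held 8 of the 10 genes, all but Cebpe and Spi1. Its 5' ends need not be the annotated ends used for the levels below. At Csf3r its window starts 141 bases, not 250, before that annotated end. The MspI site CCGG was in 4 of these 8 (Csf3r, Elane, Ltf and Prtn3), against 63.7% of 20150 promoters of protein-coding genes in the table. The letters GAGGAAG, the core that PU.1 binds, were on either strand in 6 of the 8 (Csf3r, Ctsg, Elane, Mpo, Prtn3 and S100a8), against 13.4% of the table. The C/EBP letters TTGCGCAA (0.233% of the table) and the RUNX letters TGTGGTT (4.66%) were in 0 of the 8. None of the 4 words contains another.

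Spi1, the PU.1 factor (chromosome 2, 91082390 to 91115756, plus strand), had no covered cytosine in its promoter, taken as 1000 bp before to 500 bp after the 5' end. The 10 covered cytosines of its upstream flank, at -3520 to -3308 bp from the 5' end and including the 8 capitalised CpG printed above, were nearly free of methylation. They stood at 0.29%, 1.30% and 0.99% in cKO replicates 1 to 3 and at 2.45%, 1.31% and 0.70% in control replicates 1 to 3, over 204 to 460 calls a library. All 6 libraries overlapped there. The gene body, the rest of the gene record past the promoter, differed. Its 16 cytosines stood at 30.3%, 35.7% and 24.4% in cKO and at 30.6%, 76.2% and 85.2% in control replicates 1, 2 and 3, so the cKO libraries lay below control replicates 2 and 3 and on both sides of control replicate 1. Within the body, 7 intronic cytosines 2022 to 2249 bp after the 5' end averaged 86.4% in control replicates 2 and 3 and 3 coding cytosines 31008 to 31041 bp after it averaged 78.8%. In cKO they held 39.4% and 31.0% of those levels. Between them, 3 cytosines from 14731 to 14832 bp held 34.9%, 1 at 19584 bp held 50.05%, and 2 from 14142 to 14266 bp held 52.4%, where cKO replicate 2 was at 53.3% and control replicate 2 at 46.9%. Of the 16 body cytosines, 14 had every cKO library below control replicates 2 and 3. Summed over its 7 cytosines, the downstream flank was low in both groups, at 12.5%, 8.77% and 8.87% in cKO and at 22.3%, 32.3% and 11.7% in the controls. The outermost of them, 33665 bp after the 5' end, was not low in the controls. It stood at 33.3%, 31.3% and 18.2% in cKO and at 56%, 71.4% and 71.4% in the controls, over 7 to 25 reads. Transcript Spi1-201 starts 13706 bp into the gene record. The window of the same size around that start held 1 cytosine with 13 to 25 reads, too few for a reading.

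Cebpe, the factor of late granulocyte maturation (chromosome 14, 54710360 to 54712174, minus strand), was heavily methylated at its promoter in control replicates 2 and 3, but not in control replicate 1. In cKO the promoter held 33.9% of the level in control replicates 2 and 3. Its promoter contains 40 CpG, at 0.323 of the number expected from its base composition, and 7 of their cytosines were covered, 1 at -48 bp from the 5' end and 6 in coding sequence 296 to 461 bp after it. Summed over them, the level was 28.7%, 34.6% and 25.5% in cKO replicates 1 to 3 and 15.8%, 87.7% and 87.2% in control replicates 1 to 3. Each cytosine had 15 to 71 reads in a library. The 95% Wilson intervals on the summed calls, which cover counting error only and are too narrow even for that where the same reads cover several cytosines, were 22.9 to 35.3, 29.6 to 39.9 and 20.7 to 31.0 in cKO, and 11.5 to 21.5, 82.8 to 91.3 and 80.8 to 91.6 in the controls. The cKO libraries thus lay far below control replicates 2 and 3 and above control replicate 1. The means were 29.6% ± 4.58 in cKO and 63.6% ± 41.3 in control (SD, n = 3 each), and the control mean without replicate 1 was 87.4% ± 0.356 (SD, n = 2). Those values are the ones on which Cebpe was picked.

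The cytosines of the Cebpe promoter were alike, as the plot of its covered cytosines shows. All 7 had every cKO library below both control replicates 2 and 3. Averaged over cKO libraries they spanned 19.7% to 39.4%, and averaged over control replicates 2 and 3 they spanned 76.0% to 96.2%. The highest cKO average was 344 bp after the 5' end, with 43.5%, 43.2% and 31.6% in cKO against 11.8%, 88.0% and 93.3% in the controls. The lowest was 415 bp after it, with 21.2%, 25% and 12.9% in cKO against 18.4%, 87.5% and 100% in the controls. Control replicate 1 lay below every cKO library at 4 of the 7. A single covered cytosine further out, at -2269 bp, was low in all libraries, at 0%, 7.41% and 0% in cKO and at 0%, 4.17% and 9.52% in the controls, over 15 to 32 reads.

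**Figure D1:**
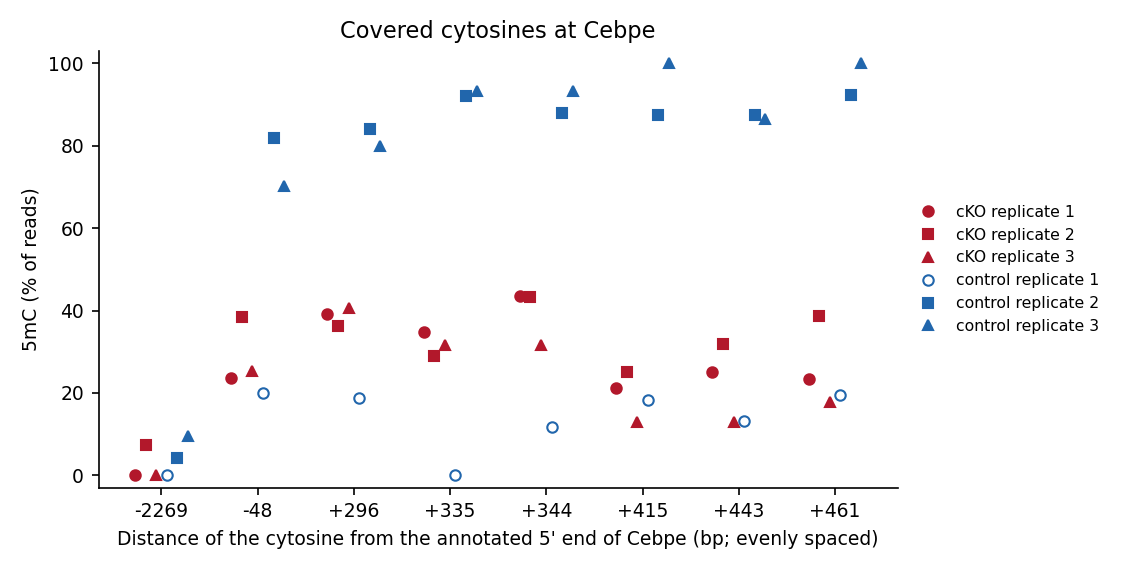
Each column is 1 covered cytosine at Cebpe, ordered by its distance in bp from the annotated 5' end and evenly spaced, and the vertical axis is the 5mC level in percent of reads, with 1 point per library. At the 7 promoter cytosines the 3 cKO libraries and control replicate 1 (open circle) lie between 0% and 43.5%, below control replicates 2 and 3, while the cytosine at -2269 bp is at 9.52% or less in every library.

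Csf3r, the receptor for the granulocyte growth factor G-CSF (chromosome 4, 126024550 to 126044440, plus strand), had 3 covered promoter cytosines, at -129 to -87 bp from the 5' end in the stretch printed above. Their summed level was 15.7%, 15.5% and 13.6% in cKO and 11.5%, 47.7% and 49.4% in control replicates 1, 2 and 3. The means were 14.9% ± 1.17 in cKO and 36.2% ± 21.4 in control (SD, n = 3 each), or 48.6% ± 1.25 without control replicate 1 (n = 2). The Csf3r promoter was thus only partly methylated even in control replicates 2 and 3. Its body had 3 covered cytosines, all intronic, at 34.4%, 37.1% and 25% in cKO and at 33.3%, 88.0% and 79.5% in the controls. The promoter lay below the body in 6 of 6 libraries, with promoter minus body differences of -18.8, -21.6 and -11.4 percentage points in cKO and -21.8, -40.4 and -30.0 points in control, and a mean of -24.0 ± 10.01 points (SD, n = 6). This within-library difference, which the choice of genes did not use, had an adjusted p of 0.03125 in a two-sided exact sign-flip permutation test over the 6 libraries, the smallest that this design can give. The test was run for Csf3r and Prtn3, the 2 genes with at least 3 covered cytosines in both regions. It was chosen with earlier results of these data known. Across the series promoters lie lower than bodies, with medians in control replicates 2 and 3 of 0.69% for 11787 promoters and 57.7% for 13394 bodies. The sign was therefore likely beforehand, and the p rests on repeat readings of the same few cytosines. Nothing particular to Csf3r is read from it.

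Mpo encodes myeloperoxidase, the peroxidase of azurophil granules (chromosome 11, 87793581 to 87804413, plus strand). Its body had 12 covered cytosines, at 25.6%, 19.2% and 17.8% in cKO and at 22.5%, 62.1% and 77.3% in control replicates 1, 2 and 3. The means were 20.9% ± 4.13 in cKO and 54.0% ± 28.3 in control (SD, n = 3 each). Every cKO library lay below control replicates 2 and 3, and the cKO mean was 29.9% of theirs, a share lower than in all but 4.02% of the 10007 gene bodies at 25% or more in those controls. The other bodies of these genes were less extreme. The percent of those 10007 bodies with a lower share was 27.9 for Spi1, 33.2 for Prtn3, 34.1 for Csf3r, 53.2 for Ltf and 83.9 for Ctsg. Along the Mpo body the share varied. It was 29.6% for 4 cytosines from 4032 to 4070 bp after the 5' end and 25.4% for 3 from 6417 to 6616 bp. Further on it was 40.3% for 2 from 7615 to 7633 bp and 17.3% for 2 from 8881 to 8926 bp. It was 69.1% for 1 at 10753 bp, where cKO replicate 1 was at 66.7% and control replicate 2 at 36.4%. Of the 12 body cytosines, 11 had every cKO library below control replicates 2 and 3. Of the 12, 7 also lie within the antisense gene Gm11505. The single covered promoter cytosine, at -433 bp, stood at 35.8%, 35.0% and 27.8% in cKO and at 35.1%, 85.1% and 74.4% in the controls, over 37 to 90 reads. A pair of cytosines in the upstream flank stood at 30.3%, 27.6% and 25% in cKO and at 12.7%, 79.2% and 80.5% in the controls.

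Elane and Prtn3, which encode neutrophil elastase and proteinase 3, lie side by side on chromosome 10 (Prtn3 79874476 to 79883174, Elane 79886247 to 79888215, both plus strand). They share 24 covered cytosines, which are the upstream flank of Elane and the body and downstream flank of Prtn3, so these are the same data under 2 names. Their summed level was 11.2%, 15.3% and 13.2% in cKO and 18.6%, 45.6% and 24.8% in control replicates 1, 2 and 3. Here control replicates 2 and 3 differed from each other by over 20 points, which 4.68% of upstream flanks at 25% or more did. Every cKO library was still below every control. The levels of single cytosines ranged widely, between 0% and 74.5% averaged over control replicates 2 and 3, and 13 of the 24 had all cKO libraries below both of those controls. The promoter of Elane had no covered cytosine, and its body had 1, in coding sequence 744 bp after the 5' end. That cytosine was at 44.3%, 37.1% and 13.6% in cKO and at 37.2%, 84.6% and 93.9% in the controls.

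The 5 cytosines past the end of Elane, in the stretch printed above, held the lowest share of the control level among the 11 regions of these genes at 25% or more in control replicates 2 and 3. They stood at 11.3%, 8.96% and 6.35% in cKO and at 41.5%, 89.6% and 90.3% in control replicates 1, 2 and 3. They lie within 40 bases on 1 strand and had 8 to 40 reads each in a library, and the same reads can be counted at each. The means were 8.86% ± 2.46 in cKO and 73.8% ± 28.0 in control (SD, n = 3 each), and the control mean without replicate 1 was 90.0% ± 0.523 (n = 2). In cKO 9.85% of that last level was held, and 0 of the 1450 downstream flanks at 25% or more had a lower share. Over every cytosine with at least 6 reads in the library at hand, 5 to 10 of them, the flank stood at 21.1%, 13.3% and 6.35% in cKO and at 59.2%, 83.9% and 73.9% in the controls, and the share was 17.2%, so the low share rests on this 1 cluster. All 5 cytosines behaved alike, at 6.31% to 11.7% averaged over cKO and at 81.2% to 96.2% averaged over control replicates 2 and 3. At all 5, control replicate 1 was above every cKO library. The cytosines lie within the processed pseudogene Gm19810, 2479 to 2518 bp after the 5' end of Elane. The printed 60 bases occur once in the chromosomes of GRCm38 before bisulfite conversion, as do 30 of the 31 words of 30 bases within them. The rest of the pseudogene, and the genome after conversion, were not searched.

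The annotated promoter of Prtn3 was of the other kind. It contains 89 CpG, at 0.636 of the expected number, and all 26 covered cytosines there lie in untranslated exon sequence at the overlapping 5' ends of Prtn3 and Plppr3, a gene read in the opposite direction. The level was 0%, 0.76% and 1.10% in cKO and 0.50%, 0.37% and 0.23% in the controls, over 399 to 820 calls, so all 6 libraries overlapped near 0. Its body, 22 of the 24 shared cytosines, was at 10.5%, 14.9% and 13.4% in cKO and at 16.7%, 44.2% and 23.4% in the controls. The promoter lay below the body in 6 of 6 libraries, by a mean of -20.03 ± 12.5 points (SD, n = 6; adjusted p = 0.03125, two-sided exact sign-flip permutation test). With the promoter near 0 in every library, any methylated body gives this sign, so no conclusion is drawn from the test here. Transcript Prtn3-201 starts 5138 bp into the gene record, and the window around that start held no covered cytosine.

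**Figure D2:**
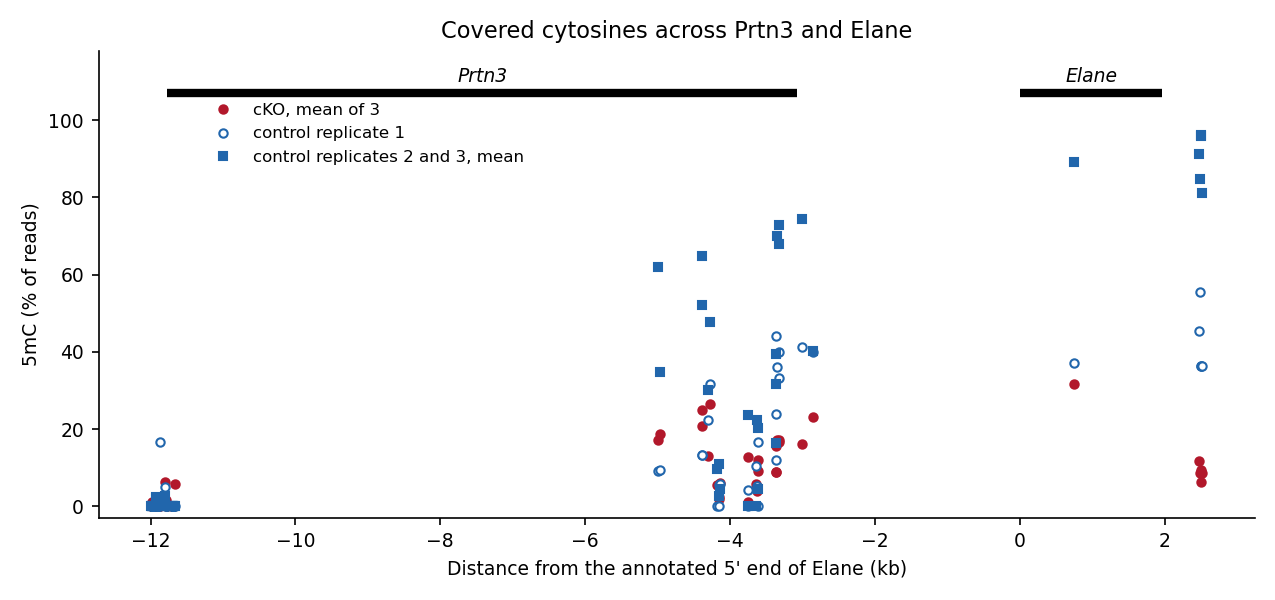
Covered cytosines from the promoter of Prtn3 to the region past Elane, by distance in kb from the annotated 5' end of Elane (horizontal) and 5mC level in percent of reads (vertical), with the cKO mean of 3 libraries, control replicate 1 and the mean of control replicates 2 and 3 as separate points. The bars at the top mark the 2 genes. Levels are near 0 at the Prtn3 promoter, mixed over the shared cytosines, and at 6.31% to 11.7% in cKO against 81.2% to 96.2% in control replicates 2 and 3 at the 5 cytosines past Elane.

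Ctsg, which encodes cathepsin G (chromosome 14, 56099881 to 56102574, minus strand), had 3 covered cytosines, all in coding sequence of its body. The level was 38.9%, 49.6% and 31.4% in cKO and 20%, 79.8% and 82.5% in control replicates 1, 2 and 3. With a cKO mean of 39.96% ± 9.12 (SD, n = 3) against 81.1% ± 1.89 in control replicates 2 and 3 (n = 2), it kept 49.3%, the highest share among the 11 regions of these genes at 25% or more in those controls. Ltf encodes lactotransferrin, a secondary granule protein that binds iron (chromosome 9, 111019271 to 111042767, plus strand). Its body gave the broadest reading, with 32 cytosines over 684 to 1221 calls, at 44.3%, 38.7% and 25.1% in cKO and at 27.0%, 86.3% and 86.7% in the controls. All 32 cytosines had every cKO library below control replicates 2 and 3, and control replicate 1 was below every cKO library at 15 of them. The 5 cytosines of the Ltf upstream flank, 3 of them in the printed stretch, were at 38.6%, 27.0% and 22.3% in cKO and at 24.5%, 79.8% and 82.6% in the controls. The 2 downstream cytosines were at 25.6%, 17.5% and 25% in cKO and at 5.26%, 70.6% and 54.3% in the controls. The promoters of Ctsg and Ltf held no covered cytosine. S100a8 and S100a9, the paired calcium-binding proteins of neutrophil cytosol, had none anywhere in their windows, which contain 0 and 2 CCGG.

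The plot of all 14 regions with at least 3 covered cytosines shows 11 regions at 25% or more in control replicates 2 and 3, and in 11 of 11 every cKO library lay below both of those controls. The Elane upstream flank and the Prtn3 body are nearly the same cytosines, and with the Prtn3 body left out the count was 10 of 10. Among all regions of protein-coding genes at that level, 92.7% of promoters, 97.6% of upstream flanks, 98.5% of bodies and 97.6% of downstream flanks did the same, so the share in these genes is near that of the rest. Single cytosines did so in 101 of 106 (95.3%), against 87.5% of 314918 cytosines in the series. Both counts include the Cebpe promoter, which was picked on this contrast. The 25% limit was set on the same 2 controls that the cKO libraries were compared with, so neither count is a test of a fall in cKO. The 11 regions held a median of 37.3% of the level in control replicates 2 and 3 (9.85% to 49.3%; 36.7% without the Prtn3 body), against medians of 41.9% for promoters, 39.2% for upstream flanks, 41.1% for bodies and 39.4% for downstream flanks. The median difference of cKO minus control was -33.0 points with all 3 controls and -50.4 points without control replicate 1. Control replicate 1 lay above every cKO library in 3 of the 11 regions, below every one in 3 and within their range in 5, and 2 of the regions above are the same cytosines under both gene names. Among all regions at that level it was above every cKO library in 9.31% to 14.7% by kind of region and below every one in 38.9% to 41.0%. The 3 remaining regions, before and after Spi1 and at the Prtn3 promoter, were under 25% on average in both groups.

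**Figure D3:**
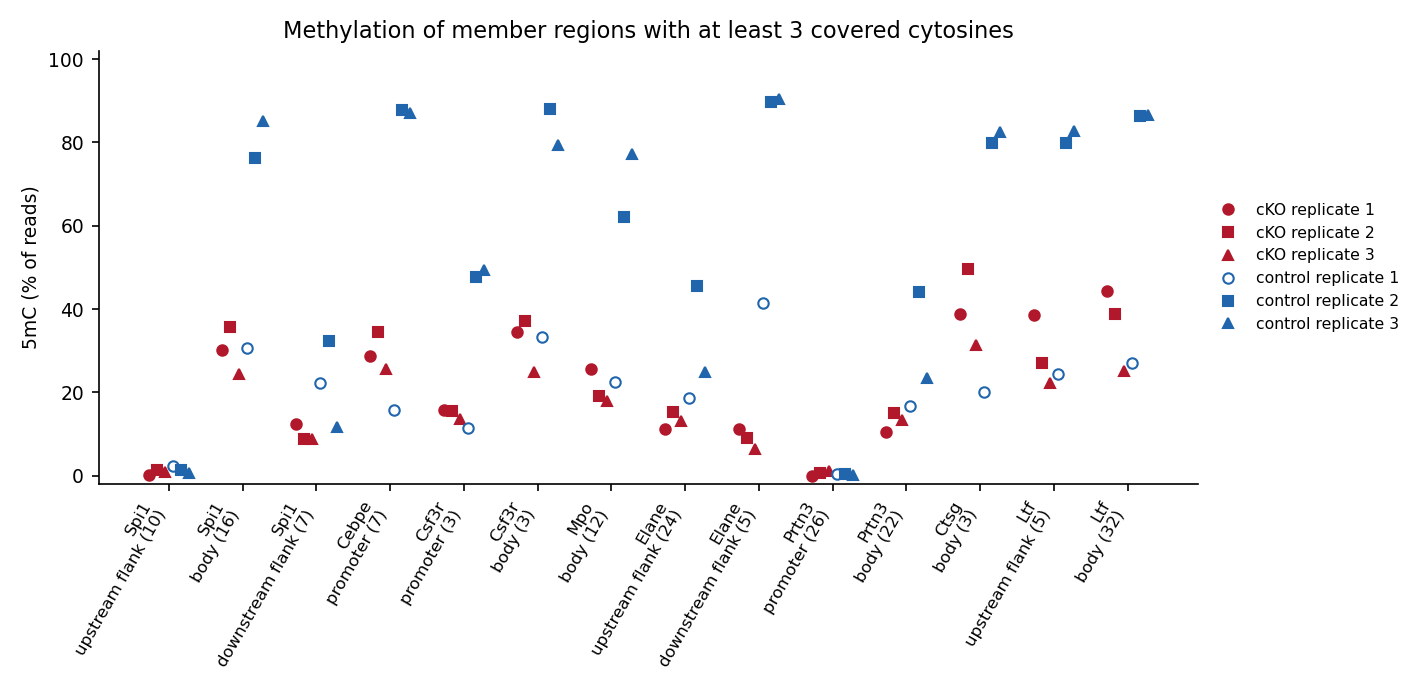
5mC level in percent of reads (vertical) of each region with at least 3 covered cytosines (horizontal, with the number of cytosines in parentheses), with 1 point per library and the cKO libraries left of the controls. In 11 regions the 3 cKO libraries lie below control replicates 2 and 3 (filled blue), as does control replicate 1 (open), and the Prtn3 promoter and Spi1 upstream flank are near 0.

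A binomial model with a quasi-likelihood F test (limma empirical Bayes, called at a Benjamini-Hochberg q under 0.01 and at least 25 points) was fitted across all regions of each kind to give the background. With all 6 libraries it called 0 of 14 regions of these genes and 0 regions of the series, 0.0% of 11787 promoters, 0.0% of 3669 upstream flanks, 0.0% of 13394 bodies and 0.0% of 2559 downstream flanks. At an unadjusted p under 0.05 there were 261, 712, 2929 and 437. Limma on the percentages also called 0 of each, and a plain binomial test called 372, 1454, 4803 and 963. Without control replicate 1 the first model called 8 of the 14 regions lower in cKO and 0 higher. They were 1 of 3 promoters (Cebpe), against 0.797% of promoters, 1 of 3 upstream flanks (Ltf), against 52.5%, 5 of 6 bodies (Spi1, Csf3r, Mpo, Ctsg and Ltf, not Prtn3), against 57.7%, and 1 of 2 downstream flanks (Elane), against 48.5%. With sex chromosomes also left out, Csf3r joined Cebpe and 2 of 3 promoters were called, against 3.63%. Only 825 of the 11787 promoters were at 25% or more in control replicates 2 and 3, so most could not fall by 25 points. These counts of calls use the contrast on which Cebpe was chosen and nothing is read from them. The plot of cKO against control levels shows where the 14 regions lie among all others.

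**Figure D4:**
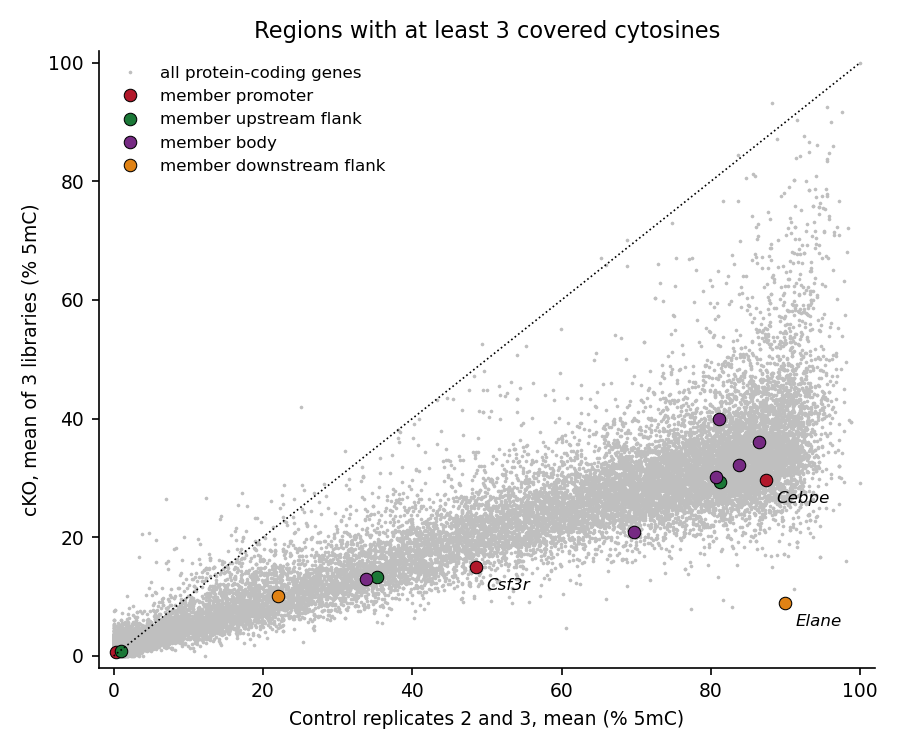
Mean 5mC level of the 3 cKO libraries (vertical) against the mean of control replicates 2 and 3 (horizontal), both in percent, for every region of a protein-coding gene with at least 3 covered cytosines (grey) and for the 14 regions of the granulocyte and myeloid genes (coloured by kind; promoters and downstream flanks at 25% or more are named). The dotted line marks equal levels. The coloured points lie in the grey band except the region past Elane, at 8.86% in cKO and 90.0% in control replicates 2 and 3.

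A wider list of 45 other granulocyte and myeloid genes had 14 promoters with at least 3 covered cytosines. Of these, 3 were at 25% or more in control replicates 2 and 3, and in all 3 every cKO library lay below both. Siglece, an inhibitory sialic acid receptor, was at 25.2%, 25.5% and 21% in cKO and at 25%, 89.1% and 97.3% in control replicates 1, 2 and 3. Itgb2, the integrin chain shared by leukocyte integrins, was at 37.6%, 31.6% and 25.5% in cKO and at 31.0%, 85.6% and 82.2% in the controls. Csf2ra, the GM-CSF receptor chain, was at 33.3%, 38.7% and 31.7% in cKO and at 30.9%, 65.2% and 52.1% in the controls.

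The other 11 promoters were nearly unmethylated. Among the 3 with the lowest mean over all controls were Klf4, a zinc finger factor of monocytes, and Cebpd. Klf4 averaged 1.64% ± 1.30 in cKO and 0% ± 0 in control, and Cebpd averaged 0.99% ± 0.60 in cKO and 0.39% ± 0.19 in control (SD, n = 3 each). Cebpa, Cebpb and Cebpd encode C/EBP factors as Cebpe does, and act earlier in the lineage or in other responses. Cebpd, and Cebpa and Cebpb, singled out here after their values were seen, averaged 0.99%, 1.37% and 1.45% in cKO against 0.39%, 0.80% and 2.08% in control. Over the 14 promoters the medians were 1.42% in cKO and 0.73% in control replicates 2 and 3. The median of all 11787 promoters was 1.30% in cKO and 0.69% in those controls.

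**Figure D5:**
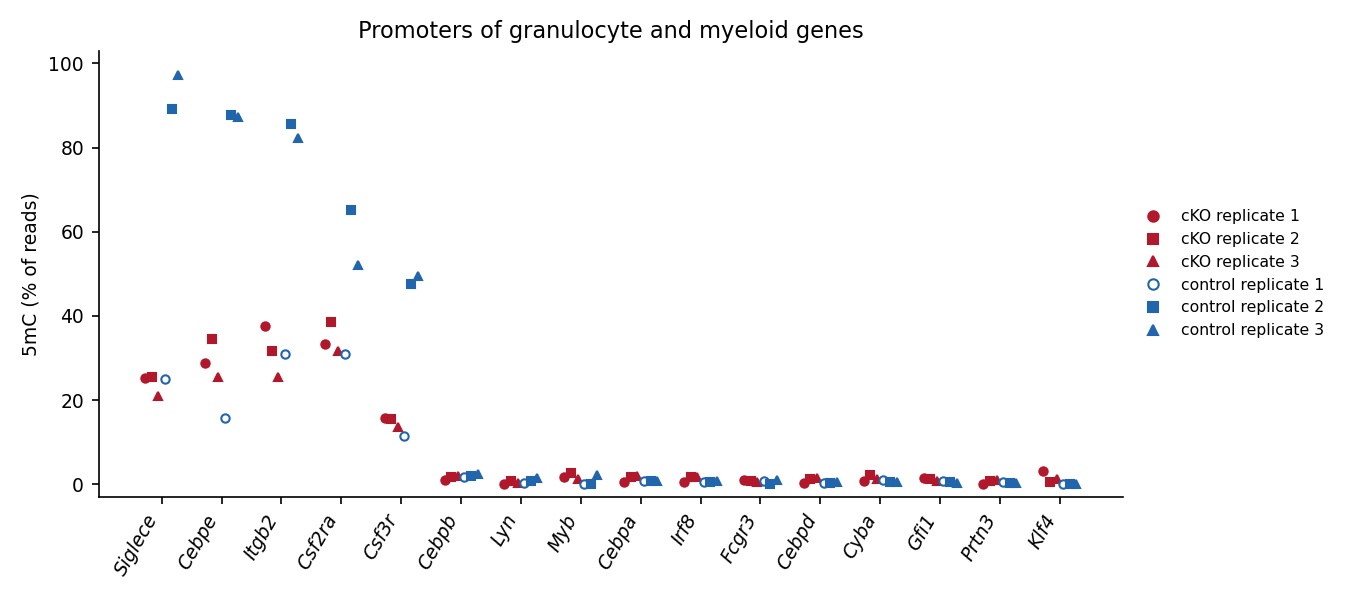
Promoter 5mC level in percent of reads (vertical) for 13 genes of the wider list and for Cebpe, Csf3r and Prtn3, ordered by the mean of control replicates 2 and 3, with 1 point per library and cKO left of control. From Siglece to Csf3r 5 promoters lie at 47.7% or more in control replicates 2 and 3 and at 38.7% or less in cKO, and the other 11 are at 3.09% or less in every library.

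Promoter levels of marker genes could check the tissue only weakly, since most were unmethylated. The 6 of 8 cortex markers with enough covered cytosines were at 0.73% to 1.97% in cKO and at 0.15% to 2.15% in control replicates 2 and 3. Of the markers of other cells in the dissected tissue, 1 of 6 for microglia (Tmem119), 1 of 5 for erythroid cells (Epor) and 2 of 5 for endothelium (Cldn5 and Flt1) could be read. Epor was at 9.66% in cKO and 15.9% in control replicates 2 and 3, with control replicate 1 at 2.55%, and the rest were at or below 3.92%. The part of such cells in the levels above was not tested.

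By the root mean square difference over the 6 libraries, the promoters most like that of Cebpe among 10332 others with at least 5 cytosines and 50 calls in every library were AC140267.1, Nedd9, Acsm3, Abhd16b and Krt42, at 3.70 to 4.44 points. The closest, AC140267.1 (chromosome 15), stood at 28.5%, 37.5% and 27.0% in cKO and at 23.8%, 85.2% and 88.6% in control replicates 1, 2 and 3. None of the 5 belongs to the lists of blood genes used here, and the likeness covers level alone.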

How the data were processed

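Mouse cortex DNA was digested with MspI, oxidised and treated with bisulfite, and sequenced by the authors on a HiSeq 1000. Reads were aligned by the authors with Genomatix software, perfect matches alone being accepted, and thinly covered positions were removed. The submitters' processing notes name GRCm38 and methylKit. For each CpG cytosine of either strand, the deposited files list a read count (coverage) and the percent of it read as C and as T. These values are neither pooled nor normalised between libraries.

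Methylated reads were recovered from the deposited coverage and percent, and summed over regions of GENCODE M21 gene records. Promoters ran from -1000 to +500 bp, flanks to 5 kb upstream and 2 kb downstream, and bodies filled the rest. Levels carry 95% Wilson intervals for counting error only, as PCR copies could not be told apart and a read counts at each cytosine it covers. Regions with at least 3 covered cytosines entered binomial models whose Pearson dispersion was moderated with limma 3.58.1 (R 4.3.3), with the prior from regions at 5% to 95% and a floor of 1. This step was tested on simulated reads in which all libraries of a group shared the same expected level. A library apart from its group, as control replicate 1 was, was not simulated. Promoter and body were compared within libraries by an exact sign-flip permutation test, adjusted over 2 genes. Other steps used Python 3.11.15, numpy 2.4.6, pandas 2.3.3 and matplotlib 3.10.9.

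The genes, gene lists and tests were chosen with earlier results of these data known. All 10 genes were described in order of role. From the wider list, promoters with the 3 highest and 3 lowest control means could be named, and the 5 promoters most like Cebpe by root mean square difference. Values of 1 gene of that list are not reported here. Alternatives covered the model, coverage of at least 10 reads, autosomes, q under 0.05, at least 5 cytosines, equal weights, a promoter from -500 to +250 bp, a replicate block and each library left out. Fits on autosomes without control replicate 1 and other 5' ends were added after the data were seen.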

Additional observations from a re-analysis of the deposited data

How the results depend on the processing

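The 6 libraries and the coverage of few cytosines per gene limit these readings. The number of calls depended on 1 library. With all 6 libraries 0 regions were called lower in cKO. Leaving out each library in turn gave 0 to 94 promoters, 0 to 1927 upstream flanks, 0 to 7735 bodies, 0 to 1240 downstream flanks and 0 to 8 regions of the 10 genes, and in each case the upper value came from leaving out control replicate 1 and the others gave 0. Those 8 were of 14 tested, with 7 outside Cebpe, against 10996 of 31409 regions of all kinds. On autosomes without control replicate 1 the counts were 418, 1915, 7617 and 1231, or 11181 of 30811 regions. They included 9 of the 14 regions of the 10 genes, 8 of them outside Cebpe. The plain binomial test gave 372, 1454, 4803 and 963, or 7592 of 31409 regions. Here 7 of the 14 were called, 6 of them outside Cebpe. Deviations from the group mean had correlations of -0.31, 0.14 and -0.42 between same-numbered libraries over 13394 bodies. In control these deviations carry the gap between control replicate 1 and the others, so whether the replicate numbers pair the libraries cannot be told from them. A replicate block gave 0 promoters, 12 upstream flanks, 0 bodies, 2 downstream flanks and 0 regions of the 10 genes. Limma on percentages, coverage of at least 10 reads, autosomes alone, q under 0.05 and at least 5 cytosines gave 0 throughout. The promoter minus body difference ranged from -26.5 to -20.7 points at Csf3r and from -21.9 to -15.3 points at Prtn3 when 1 library was left out, where the adjusted p of 0.0625 is the smallest that 5 libraries allow. Of 126 alternative values of the cKO minus control difference in the 14 regions, 126 kept their sign, but the sizes moved. Among 12 regions with a difference of at least 10 points, leaving out control replicate 1, 2 or 3 moved it by over 1.5 times in 5, 5 and 3, leaving out a cKO library in 0, and coverage of at least 10 reads in 1. Over all alternatives the difference ranged from -57.8 to -21.9 points at the Cebpe promoter, from -33.6 to -14.7 at the Csf3r promoter, from -41.2 to -9.93 in the Ctsg body and from -20.9 to -7.14 in the Prtn3 body.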
